A study of Homo sapiens with 12 samples.

Results

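Casein kinase 1 (CK1) is a family of serine/threonine kinases, and 4 of its isoforms are described here: CSNK1D (NM_001893.3), CSNK1E (NM_152221.2), CSNK1G1 (NM_022048.3) and CSNK1G2 (NM_001319.5), which encode CK1 delta, epsilon, gamma 1 and gamma 2. They are 4 of the 7 CK1 genes among the 199 genes of an nCounter panel, and they were taken because the study listed these 4 as higher after miR-25 overexpression in the same samples. The direction of their miR-25 to control ratios is therefore not independent evidence. The other CK1 genes of the panel, CSNK1A1 (CK1 alpha), CSNK1G3 (CK1 gamma 3) and CSNK1A1L, serve for comparison, as does CSNK2A1, a catalytic subunit of the unrelated casein kinase 2.

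CK1 kinases act on both sides of the Wnt pathway. CK1 alpha phosphorylates beta-catenin in the destruction complex and so primes it for GSK3 and degradation, whereas CK1 delta and epsilon phosphorylate Dishevelled and pass the Wnt signal on. The gamma isoforms are anchored in the plasma membrane, where they phosphorylate the Wnt co-receptor LRP6. CK1 delta and epsilon also set the pace of the circadian clock through the PER proteins, and CK1 isoforms take part in the Hedgehog pathway by phosphorylating SMO and the GLI factors.

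The cells were LX-2, an established line of activated human hepatic stellate cells (HSCs), the cells that lay down collagen in liver fibrosis. They were cultured in DMEM with 2% FCS and transfected with 10 pmol/ml of a miR-25 mimic or of a control mimic derived from a Caenorhabditis elegans sequence, and RNA was extracted after 24 h or 48 h. Each of the 4 groups (control and miR-25, at 24 h and at 48 h) had 3 samples, so 12 in all. A control and a miR-25 sample of 1 time point and replicate shared a plate and a measured transfection efficiency and form a pair, and there were 6 pairs. The efficiency was taken as the share of fluorescein-positive cells in a parallel well and was, for pairs 1, 2 and 3 in turn, 0.59, 0.75 and 0.81 among the 24 h pairs and 0.42, 0.61 and 0.65 among the 48 h pairs. The line is a single established one, and mimic levels are far above those of a native miRNA, with relative miR-25 expression of 62.34 to 681.22 against the control in the labels.

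The mature miR-25-3p that the mimic stands for lies on the minus strand at chr7:100093571-100093592 (GRCh38.p14, sequence from RefSeq), in an intron of MCM7. It is shown 5′ to 3′ with its seed (bases 2 to 8) in capitals, since the seed is what an mRNA target would pair with.
hsa-miR-25-3p: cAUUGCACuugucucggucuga
Each nCounter probe pair reads a target of 100 bases in its transcript, and those of CSNK1E and CSNK1G2 are shown as examples. The capitals mark the longest run of letters that both have in common, of 7 bases.
CSNK1E target: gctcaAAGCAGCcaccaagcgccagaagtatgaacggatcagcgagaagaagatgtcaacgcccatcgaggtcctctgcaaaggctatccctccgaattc
CSNK1G2 target: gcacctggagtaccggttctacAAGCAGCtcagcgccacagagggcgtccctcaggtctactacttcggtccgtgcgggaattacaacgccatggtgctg
Over the 21 pairs that the 7 CK1 targets can form, the longest shared run was between 5 and 8 bases. These runs compare the targets with each other only. No target was searched in the transcripts of the other isoforms, so the runs cannot show whether a probe pair tells the isoforms apart. The GC content of the targets was 48% for CSNK1D, 54% for CSNK1E, 49% for CSNK1G1 and 60% for CSNK1G2. The letters GTGCAAT, the complement of the seed read on the target strand, were in none of these 4 targets and in 0 of the 193 panel targets searched, 0% of them. This says only that the measured stretches lack these letters, and the rest of the transcripts was not used here.

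Total counts over the panel genes were 321243 to 409581 per sample at 24 h and 107377 to 200821 at 48 h; the later time point thus rests on fewer counts, and its effect cannot be told apart from that of depth. The stellate cell genes COL1A1 and CDH2 were above background in 12 of 12 samples. Of 11 markers of other cell types, 4 were above background in no sample (FOXA2, CD3D, CD8B and SOX2), 6 in some, and only POU5F1 in all 12, with at most 54 counts. In 48 h replicate 1 both samples stood apart from the other 48 h samples of their group, and their chi-square over degrees of freedom against them was 51.4 to 73.1, compared with 2.52 and 4.0 between replicates 2 and 3. To a lesser degree 24 h replicate 1 stood apart too, with 13.2 to 16.8 against replicates 2 and 3 and 3.08 and 3.21 between those. In the pair of 48 h replicate 1, COL1A1 was at 540 and 740 per 100000 gene counts, against 1448 to 1857 in the other 4 samples at 48 h and 1031 to 1134 at 24 h. CDH2 lay the other way, with 1421 and 1606 in this pair, 1056 to 1216 in the other samples at 48 h and 1727 to 1818 at 24 h. CD4 was at 5.15 and 5.59, against 15.7 to 23.4 and 6.54 to 11.4, and the 11 markers of other cell types summed to 31.7 and 38.0, against 38.2 to 55.4 and 30.3 to 46.5. The part of these markers in the results below was not tested, and the 48 h fold changes of the 4 isoforms are given with and without 48 h replicate 1.

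CSNK1D was the most abundant CK1 transcript of the panel and CSNK1G2 the least abundant of the 4. Levels are given as counts per 100000 gene counts of a sample; each transcript is counted through 1 probe pair, so the counts do not grow with transcript length, but probe pairs can differ in efficiency. As RNA of whole cultures was measured, fewer cells with a transcript and less of it per cell cannot be told apart. Over the 12 samples the mean level was 1070 ± 168 for CSNK1D, 649 ± 56.4 for CSNK1E, 156 ± 21.8 for CSNK1G1 and 90.1 ± 13.3 for CSNK1G2 (SD, n = 12). CSNK1G3 (439 ± 29.3) and CSNK1A1 (263 ± 57.9) lay between CSNK1E and CSNK1G1. The order CSNK1D, CSNK1E, CSNK1G3, CSNK1A1, CSNK1G1, CSNK1G2 held within each of the 12 samples. Only the ranges of CSNK1G3 and CSNK1A1 overlapped when samples were compared with each other. Among the 199 genes, the mean levels ranked 24 for CSNK1D, 32 for CSNK1E, 73 for CSNK1G1 and 93 for CSNK1G2. CSNK1A1L, an intronless relative of CSNK1A1, had 1 to 5 counts and was not above the background of the negative probes in any sample. The 4 isoforms were above that background in 12 of 12 samples and passed the filter of a mean of at least 20 counts, as did 136 of the 199 genes.

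**Figure D1:**
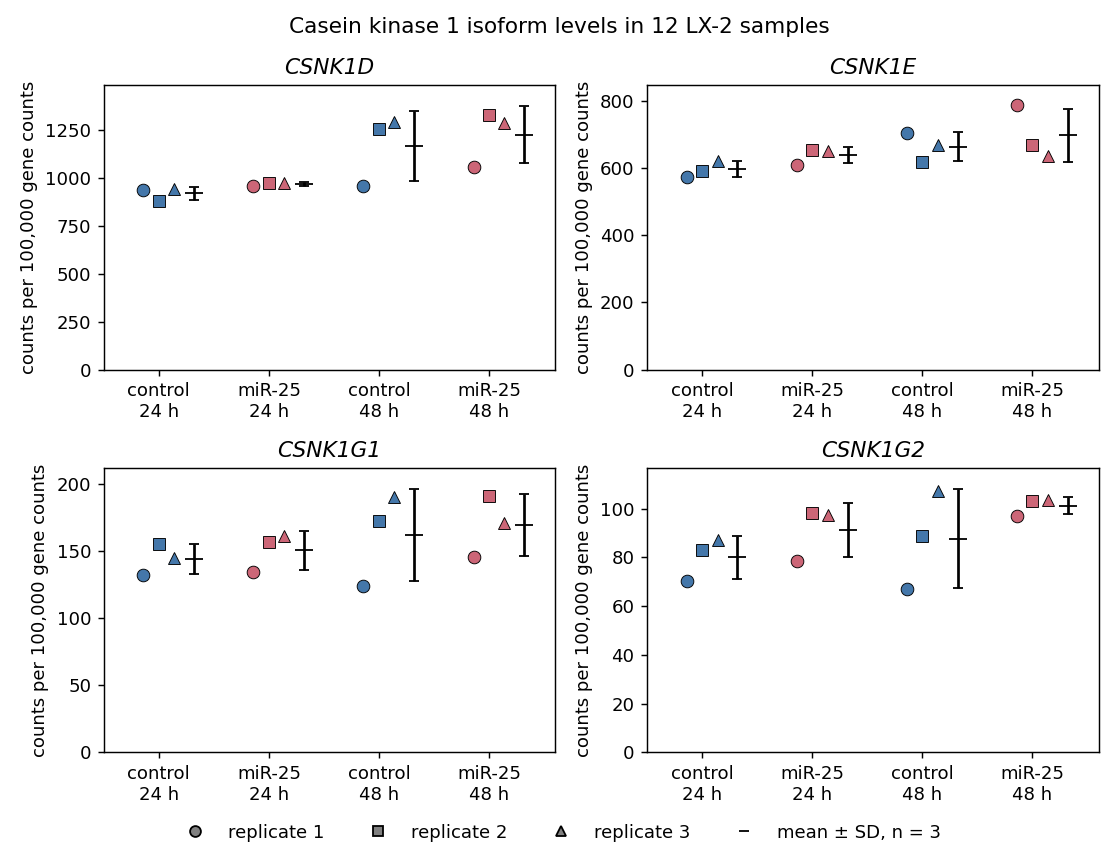
Level of each CK1 isoform (counts per 100,000 gene counts, axis from 0) in the 4 groups. Points are samples, with the replicate as marker shape, and the bars beside them are the mean ± SD of 3 samples. CSNK1D was higher at 48 h in replicates 2 and 3 than in any 24 h sample, and 48 h replicate 1 (circles) lay lower for CSNK1D, CSNK1G1 and CSNK1G2 but higher for CSNK1E.

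The first comparison asks whether the levels changed between 24 h and 48 h of culture after transfection. CSNK1D, the CK1 delta kinase that acts on Dishevelled and PER, was at 934, 881 and 942 in the control samples at 24 h and at 959, 1253 and 1292 at 48 h (replicates 1, 2 and 3, counts per 100000 gene counts). In the miR-25 samples it was at 957, 973 and 975 at 24 h and at 1055, 1330 and 1288 at 48 h. In both arms all 48 h samples lay above all 24 h samples, replicate 1 by less than the others. The arms share plates, and both samples of a 48 h pair deviated from their group means together (r = 0.778 to 0.883). Agreement between the arms, here and below, is therefore not independent replication. In each arm CSNK1D was the 1 member whose groups did not overlap, 1 of 4, in a panel where 21.3% of the tested genes lay higher at 48 h without overlap in the control samples and 18.4% in the miR-25 samples.

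The log2 fold change of CSNK1D, 48 h over 24 h, was 0.35 in the control samples (standard error 0.131, 95% interval 0.04 to 0.66, edgeR adjusted p = 0.130) and 0.34 in the miR-25 samples (standard error 0.114, 95% interval 0.07 to 0.61, edgeR adjusted p = 0.109). Neither passed the threshold of 0.05. Without 48 h replicate 1 the difference was 0.47 in the control samples (standard error 0.0619, edgeR adjusted p = 0.000555) and 0.43 in the miR-25 samples (standard error 0.0537, edgeR adjusted p = 0.000305), and both passed. This setting was not specific to CSNK1D, since it called 37 genes, 27.2% of those tested, as higher in the control samples and 38 genes, 27.9%, in the miR-25 samples. In either direction it called 54 genes (39.7%) and 62 genes (45.6%), where all samples together gave 7 genes (5.15%) and 10 genes (7.35%). Without 24 h replicate 1 the difference of CSNK1D was 0.36 (edgeR adjusted p = 0.267) in the control samples and 0.33 (edgeR adjusted p = 0.231) in the miR-25 samples.

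CSNK1E, the closest relative of CSNK1D, had another pattern. It was at 574, 592 and 622 in the control samples at 24 h and at 705, 617 and 668 at 48 h. In the miR-25 samples it was at 610, 655 and 650 at 24 h and at 786, 669 and 636 at 48 h. Its highest value in each arm was that of 48 h replicate 1, the sample in which CSNK1D was lowest at 48 h, and the time points overlapped in both arms. The log2 difference was 0.15 in the control samples (95% interval -0.07 to 0.38, edgeR adjusted p = 0.285) and 0.13 in the miR-25 samples (95% interval -0.13 to 0.39, edgeR adjusted p = 0.463). The values without 48 h replicate 1 were 0.11 (edgeR adjusted p = 0.255) and 0.03 (edgeR adjusted p = 0.729).

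The gamma isoforms did not pass the test either. CSNK1G1, a membrane-anchored kinase, was at 132, 155 and 145 in the control samples at 24 h and at 124, 172 and 190 at 48 h. It was at 134, 157 and 161 in the miR-25 samples at 24 h and at 145, 191 and 171 at 48 h. The 48 h samples spanned a wider range than the 24 h samples and overlapped them in both arms. Its log2 difference was 0.18 in the control samples (95% interval -0.22 to 0.58, edgeR adjusted p = 0.484) and 0.17 in the miR-25 samples (95% interval -0.15 to 0.49, edgeR adjusted p = 0.436). Without 48 h replicate 1 it was 0.33 (edgeR adjusted p = 0.0492), just past the threshold, and 0.26 (edgeR adjusted p = 0.0777).

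CSNK1G2 was at 70.2, 82.9 and 87.2 in the control samples at 24 h and at 67.1, 88.8 and 107 at 48 h. It was at 78.6, 98.1 and 97.4 in the miR-25 samples at 24 h and at 97.2, 103 and 104 at 48 h. Its lowest level of all came from control 48 h replicate 1, a sample with 72 counts for this gene. The log2 difference was 0.15 in both arms, with a 95% interval of -0.30 to 0.59 in the control samples (edgeR adjusted p = 0.596) and of -0.15 to 0.45 in the miR-25 samples (edgeR adjusted p = 0.455). With 48 h replicate 1 left out the values were 0.30 (edgeR adjusted p = 0.124) and 0.18 (edgeR adjusted p = 0.265).

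In all, 0 of the 4 isoforms passed in either arm. At an unadjusted p under 0.05 by edgeR there was 1 (CSNK1D) in each arm, beside 42 and 43 of all 136 genes. After adjustment, DESeq2 gave 0 isoforms in the control samples and 1 (CSNK1D) in the miR-25 samples, beside 22 and 33 genes. Limma gave 0 isoforms in both, beside 6 and 7 genes. The median log2 difference of the 4 was 0.17 in the control samples and 0.16 in the miR-25 samples, beside 0.13 and 0.09 over all 136 genes. Of the comparison genes, CSNK1A1 gave 0.43 (edgeR adjusted p = 0.113) and 0.46 (edgeR adjusted p = 0.130), and CSNK1G3 gave -0.12 (edgeR adjusted p = 0.403) and -0.13 (edgeR adjusted p = 0.374). CSNK1A1 was highest in 48 h replicate 1, with 354 and 399 per 100000 against 262 to 277 in the other 48 h samples, so its excess over 24 h was smaller without that replicate, where it passed in both arms (0.30, edgeR adjusted p = 0.0322, and 0.24, edgeR adjusted p = 0.0325). The direction of CSNK1D held when scaled to 5 reference genes (0.27 and 0.21, edgeR adjusted p = 0.263 and 0.359). It also held with the total without GAPDH (0.39 and 0.40, edgeR adjusted p = 0.0784 and 0.0498). Reference genes were themselves called without 48 h replicate 1. In the control and miR-25 samples GUSB was higher by 0.74 and 0.65 and TUBB by 0.16 in each. In the miR-25 samples GAPDH was also called as higher (0.11) and CLTC as lower (-0.28). CSNK1E gave 0.07 and -0.0025 with 5 reference genes. The positive control probes, which were spiked in at a fixed amount, turned the direction. Scaled to them, all 4 isoforms were lower at 48 h (log2 differences of -0.38 to -0.61 in the control samples and -0.21 to -0.46 in the miR-25 samples), as was the median of all genes (-0.64 and -0.46).

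**Figure D2:**
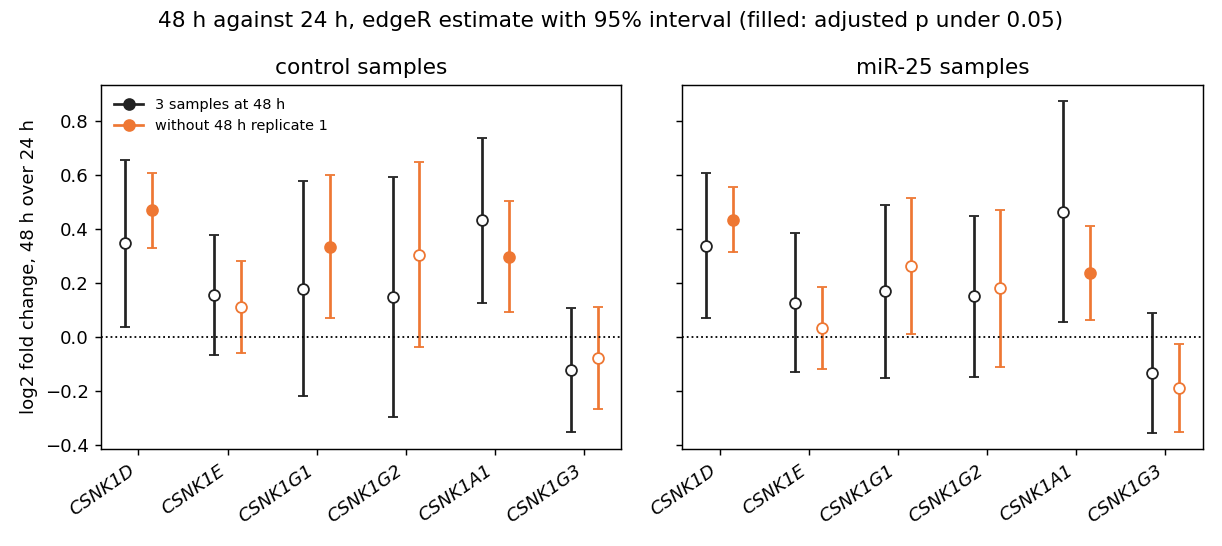
Log2 fold change, 48 h over 24 h, of the 4 isoforms, CSNK1A1 and CSNK1G3 in the control and the miR-25 samples, with 95% intervals, from all samples (black) and without 48 h replicate 1 (orange). Filled points had an edgeR adjusted p under 0.05. CSNK1D went from 0.35 to 0.47 and from 0.34 to 0.43 when the replicate was left out, and its interval narrowed.

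Ratios between isoforms within a sample do not depend on scaling. The CSNK1D to CSNK1E ratio of counts was 1.63, 1.49 and 1.52 in the control samples at 24 h and 1.57, 1.49 and 1.50 in their miR-25 partners. After 48 h it was 1.36, 2.03 and 1.93 in the control samples and 1.34, 1.99 and 2.02 in the miR-25 samples. The 6 values at 24 h stayed within 1.49 to 1.63, whereas at 48 h replicate 1 fell below that range and replicates 2 and 3 above it, in both arms. The 48 h and 24 h groups therefore overlapped, and an exact two-sided permutation test gave p = 0.4 in each arm (adjusted p = 0.8 over the 6 isoform ratios).

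The CSNK1D to CSNK1G1 ratio was 7.08, 5.68 and 6.51 in the control samples at 24 h and 7.74, 7.29 and 6.80 at 48 h. In the miR-25 samples it was 7.14, 6.21 and 6.05 at 24 h and 7.25, 6.96 and 7.54 at 48 h. Here 48 h replicate 1 did not fall below the other 48 h samples, and the 24 h value of replicate 1 reached into the 48 h range (exact permutation p = 0.2 and adjusted p = 0.6 in each arm). Averaged over the 2 samples of a pair, the ratio was 5.94 to 7.11 at 24 h and 7.12 to 7.49 at 48 h and no longer overlapped (exact permutation p = 0.1, the smallest that 3 against 3 can give, adjusted p = 0.6).

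CSNK1D to CSNK1G2 was 10.6 to 13.3 at 24 h and 12 to 14.3 at 48 h in the control samples, and 9.91 to 12.2 and 10.9 to 12.9 in the miR-25 samples. The ratio of the 2 gamma isoforms, CSNK1G1 to CSNK1G2, spanned the narrowest range over the 12 samples together (1.50 to 1.94). At 24 h and 48 h it was 1.66 to 1.88 and 1.77 to 1.94 in the control samples and 1.60 to 1.70 and 1.50 to 1.85 in the miR-25 samples. It was not the most even in every group, since CSNK1D to CSNK1G1 was 6.96 to 7.54 in the miR-25 samples at 48 h. None of the 6 ratios had an adjusted p under 0.6 in either arm, and with 3 samples against 3 no exact test could have gone under 0.1.

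**Figure D3:**
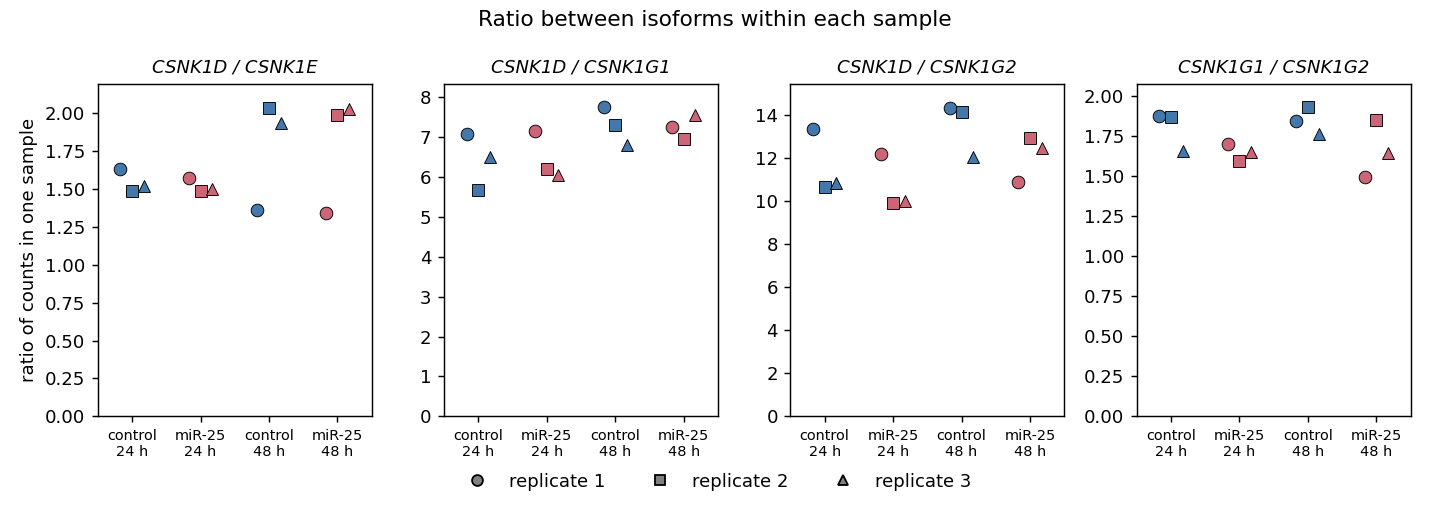
Ratio of the counts of isoform pairs within each sample (axes from 0), by group, with the replicate as marker shape. The CSNK1D to CSNK1E ratio was 1.34 and 1.36 in 48 h replicate 1 (circles) and 1.93 to 2.03 in the other 48 h samples, while the CSNK1G1 to CSNK1G2 ratio was 1.50 to 1.94 over all samples.

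The second comparison sets the miR-25 sample of each pair against its control. All ratios are of counts divided by the panel total. All 4 isoforms had a ratio above 1 in 3 of 3 pairs at 24 h, as had 25.7% of the tested genes, and in 2 of 3 pairs at 48 h. None of the 4 was above 1 in all 3 pairs at 48 h, as 16.9% of the tested genes were. Over both time points each was above 1 in 5 of 6 pairs, and 22.1% of the tested genes were above 1 in 5 or 6 pairs. The exception was the same pair for all 4, 48 h replicate 3, the pair with the highest relative miR-25 expression, where the ratios were 0.900 to 0.997. Scaling to 5 reference genes gave the same counts, and TMM scaling did not. With TMM, CSNK1D was above 1 in 2 pairs at 24 h and 3 at 48 h, CSNK1G1 in 1 and 2, and CSNK1E and CSNK1G2 in 3 and 2, so that CSNK1G1 was above 1 in 3 of 6 pairs and the others in 5 of 6. The pair of CSNK1D below 1 was then 24 h replicate 1 (0.974), while 48 h replicate 3 was at 1.02.

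CSNK1G2 had the largest ratios, 1.12, 1.18 and 1.12 at 24 h and 1.45, 1.16 and 0.964 at 48 h (pairs 1, 2 and 3). The value of 1.45 came from 72 counts in the control and 151 in the miR-25 sample. The mean was 1.14 ± 0.0379 at 24 h and 1.19 ± 0.245 at 48 h (SD, n = 3), so that at 48 h the spread was larger than the distance from 1. The log2 fold change was 0.19 at 24 h (95% interval 0.02 to 0.36, unadjusted p = 0.0287 and adjusted p = 0.557 by edgeR) and 0.18 at 48 h (95% interval -0.05 to 0.40, edgeR adjusted p = 0.540). Over both times it was 0.19 (95% interval 0.06 to 0.31, unadjusted p = 0.00732 and adjusted p = 0.249 by edgeR). Without 48 h replicate 1 the value at 48 h was 0.06 (edgeR adjusted p = 0.856).

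CSNK1E had ratios of 1.06, 1.11 and 1.05 in the 24 h pairs, and in the 48 h pairs they were 1.11, 1.08 and 0.953. The mean was 1.07 ± 0.0306 at 24 h and 1.05 ± 0.0860 at 48 h (SD, n = 3). Its log2 fold change was 0.10 at 24 h (95% interval 0.00 to 0.20, edgeR adjusted p = 0.723), 0.06 at 48 h (95% interval -0.05 to 0.17, edgeR adjusted p = 0.598) and 0.08 over both times (95% interval 0.01 to 0.16, edgeR adjusted p = 0.286). At 48 h it was 0.015 without 48 h replicate 1 (edgeR adjusted p = 0.902).

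CSNK1D gave 1.02, 1.10 and 1.03 in the 24 h pairs, then 1.10, 1.06 and 0.997 in the 48 h pairs, with means of 1.05 ± 0.0437 and 1.05 ± 0.0518 (SD, n = 3). The log2 fold change was 0.08 at 24 h (95% interval -0.01 to 0.16, edgeR adjusted p = 0.777), 0.07 at 48 h (95% interval -0.02 to 0.16, edgeR adjusted p = 0.540) and 0.07 over both times (95% interval 0.01 to 0.14, edgeR adjusted p = 0.286). Leaving out 48 h replicate 1 gave 0.04 at 48 h (edgeR adjusted p = 0.837). At both times the intervals of CSNK1D and CSNK1G1 included 0.

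CSNK1G1 gave 1.02, 1.01 and 1.11 in the 24 h pairs, then 1.17, 1.11 and 0.900 in the 48 h pairs, with means of 1.05 ± 0.0576 and 1.06 ± 0.144 (SD, n = 3). The log2 fold change was 0.06 at 24 h (95% interval -0.08 to 0.20, edgeR adjusted p = 0.858), 0.05 at 48 h (95% interval -0.13 to 0.23, edgeR adjusted p = 0.786) and 0.06 over both times (95% interval -0.05 to 0.17, edgeR adjusted p = 0.659). Its value at 48 h turned to -0.016 without 48 h replicate 1 (edgeR adjusted p = 0.934).

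**Figure D4:**
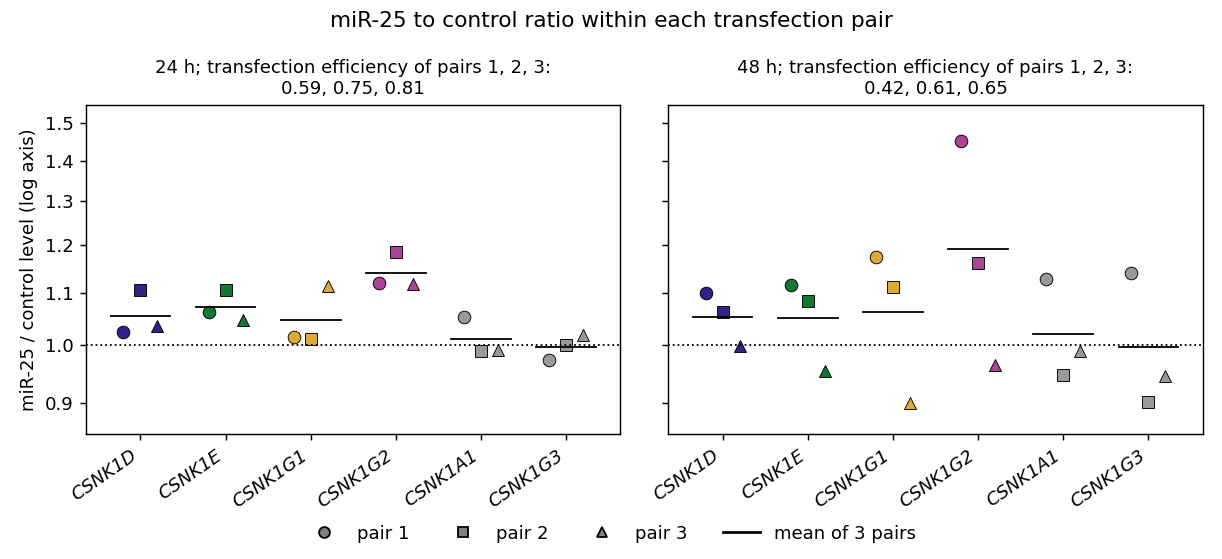
Ratio of the miR-25 to the control level within each transfection pair (log axis, dotted line at 1) at 24 h and 48 h for the 4 isoforms (coloured) and for CSNK1A1 and CSNK1G3 (grey). Markers are pairs and lines the mean of 3 pairs. At 24 h the isoforms lay between 1.01 and 1.18 in every pair, and at 48 h between 0.900 and 1.45, with pair 3 below 1 for each (scaled to the panel total).

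With the edgeR test and its adjustment over the 136 genes, 0 of the 4 isoforms passed at 24 h, at 48 h or over both times, and the panel as a whole gave 0 genes (0.0%), 1 gene (0.735%) and 0 genes (0.0%). At an unadjusted p under 0.05, 2 isoforms (CSNK1E and CSNK1G2) were higher at 24 h beside 5.88% of all genes, 0 at 48 h beside 5.15%, and 3 (CSNK1D, CSNK1E and CSNK1G2) over both times beside 11.8%. In either direction it was 9 genes (6.62%), 17 genes (12.5%) and 21 genes (15.4%). DESeq2 and limma also gave 0 isoforms after adjustment in all 3 comparisons. Without adjustment DESeq2 gave 0 in each, beside 1, 6 and 10 of all genes. Limma then gave 0, 0 and 1 (the 1 over both times), beside 6, 24 and 19 of all genes. By p over both times, CSNK1G2 ranked 4, CSNK1D 11, CSNK1E 14 and CSNK1G1 57 of 136 genes. An exact two-sided sign-flip permutation test of the 6 log2 ratios gave p = 0.0625 for CSNK1D and CSNK1G2, 0.0938 for CSNK1E and 0.156 for CSNK1G1. Because the isoforms were chosen for their direction in these same pairs, the ranks and p-values are not independent evidence.

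The log2 difference between the miR-25 to control fold changes at 48 h and at 24 h was -0.01 for CSNK1D, -0.04 for CSNK1E, -0.02 for CSNK1G1 and -0.01 for CSNK1G2. The 95% intervals of this difference were -0.13 to 0.12, -0.19 to 0.11, -0.25 to 0.21 and -0.30 to 0.27, and the edgeR adjusted p was 0.941 to 0.976. They were lower without 48 h replicate 1, at -0.037, -0.084, -0.078 and -0.13 in the same order (edgeR adjusted p = 0.845 for each). No isoform and 0 genes of the panel (0.0%) passed, and without adjustment 0 isoforms and 8 genes had a p under 0.05; DESeq2 called 1 gene and limma 0. CSNK1A1 was above 1 in 2 of 6 pairs (mean ratio 1.02 ± 0.0646, SD, n = 6), as was CSNK1G3 (0.996 ± 0.0817). The study had not listed either among the genes that went up, so this contrast with the 4 isoforms is set by how they were chosen.

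Scaling and the efficiency correction move these ratios. Scaled to the positive control probes, all 4 isoforms passed the test at 48 h, with log2 fold changes of 0.34 to 0.47, but 51 of 136 genes then passed as well and the median of all genes was 0.27. The study divided the ratios of genes with a mean ratio above a small margin over 1, as these 4 had at both times, by the transfection efficiency of the pair. Under that step a ratio of 1 becomes 1.23 to 1.69 at 24 h and 1.54 to 2.38 at 48 h. The corrected mean of CSNK1G2 was 1.62 ± 0.265 at 24 h and 2.31 ± 1.07 at 48 h, and that of CSNK1D was 1.50 ± 0.230 and 1.96 ± 0.576 (SD, n = 3). The highest corrected value, 3.52 for CSNK1G2, belonged to the pair with the lowest efficiency, 0.42.

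Whether the ratios follow the efficiency or the miR-25 level was asked over the 6 pairs, with 8 relations computed. For CSNK1G2 the log2 ratio against transfection efficiency had Pearson r = -0.592 (exact permutation p = 0.178, adjusted p = 0.979) and Spearman rho = -0.486 (exact permutation p = 0.356, adjusted p = 0.711). Without the 2 pairs farthest from the median efficiency, 24 h replicate 3 and 48 h replicate 1, r was 0.208, so the relation rests on those pairs. The other isoforms gave r of -0.240 to -0.314 against efficiency, and r against the log2 of relative miR-25 expression was -0.0109 to -0.390 over the 4 isoforms. All 8 adjusted p-values for r were 0.979. Efficiency and time point are linked, since each 48 h pair had a lower efficiency than the 24 h pair of its number, and the 3 pairs of 1 time point are too few for a value within it.

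Likeness of pattern was measured as Pearson's r of the log2 share of counts over the 12 samples, which share depth and the split between 24 h and 48 h. Among the genes most like CSNK1D were JAG2, a Notch ligand (r = 0.902), and RB1, the retinoblastoma gene (0.902). For CSNK1E they were the histone deacetylase HDAC1 (0.887), CSNK1A1 (0.854) and the gamma-secretase subunit PSENEN (0.850). CSNK1G1 was most like RFNG, a glycosyltransferase that modifies Notch (0.927), the corepressor CTBP1 (0.901) and RB1 (0.886), and CSNK1G2 was most like CSNK1G1 (0.861), CTBP1 (0.843) and the cyclin CCND3 (0.778). Among the isoforms, CSNK1D went with CSNK1G1 (0.797) and CSNK1G2 (0.657) more than with CSNK1E (0.243), and CSNK1E with CSNK1G1 least (0.0492). CSNK1E and CSNK1A1 were highest in both samples of 48 h replicate 1, and no r was computed without that pair.

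The partners of CK1 in both pathways were taken as lists. Of 16 canonical Wnt partners (the destruction complex, Dishevelled, PP2A subunits and others), all tested, 0 passed between 48 h and 24 h in the control samples and 1 in the miR-25 samples, where APC, the scaffold of the destruction complex, fell by 0.58 on the log2 scale (edgeR adjusted p = 0.0279). This call held in 1 of the 6 fits that each left out 1 sample (edgeR adjusted p 0.00279 to 0.148). The median was -0.04 and -0.06, beside 0.13 and 0.09 for all genes. Without 48 h replicate 1, 1 partner rose and 2 fell in the control samples, where TCF7, a Wnt transcription factor, rose by 1.04, APC fell by 0.52 and the phosphatase subunit PPP2CA fell by 0.17. In the miR-25 samples without that replicate, TCF7 did not rise (-0.17, edgeR adjusted p = 0.735). There 3 partners rose (DVL3 by 0.32, PPP2R5C by 0.37 and FRAT1 by 0.52) and 3 fell (APC by 0.60, PPP2CA by 0.16 and DVL1 by 0.52). These counts stand beside the 54 and 62 genes that this setting called in the whole panel.

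Of 9 genes of the Hedgehog relay, 7 were tested, and SMO, the signal transducer that CK1 phosphorylates, rose in both arms, by 0.79 in the control samples (edgeR adjusted p = 0.0140) and by 0.72 in the miR-25 samples (edgeR adjusted p = 0.0394). Of the 6 fits that each left out 1 sample, 2 called SMO in the control samples (edgeR adjusted p 0.00222 to 0.109) and 1 in the miR-25 samples (0.00701 to 0.179). The median of the 7 was 0.30 and 0.27, and all 7 had a difference above 0, as had 84 and 81 of all 136 genes. Scaled to the positive control probes, SMO was at 0.02 and 0.13. Without 48 h replicate 1, SMO (0.79) and GLI1 (0.77) passed in the control samples and SMO (0.62), GLI1 (0.91) and GLI2 (0.30) in the miR-25 samples. Between miR-25 and control, 0 of the 16 Wnt partners and 0 of the 7 Hedgehog genes passed at 24 h, at 48 h or over both times by edgeR, with 1, 1 and 2 Wnt partners and 0, 0 and 1 Hedgehog genes at an unadjusted p under 0.05, beside 9, 17 and 21 of all genes. The median log2 fold change over both times was 0.01 for the Wnt partners and 0.08 for the Hedgehog genes, beside 0.08 for the 4 isoforms and 0.02 for all genes. These values are from all samples. Without 48 h replicate 1, DVL3 of the Wnt list passed over both times (0.17, edgeR adjusted p = 0.0320), in a fit that called 4 genes of the panel. With all samples DVL3 was at 0.15 (edgeR adjusted p = 0.249). CSNK2A1, the casein kinase 2 subunit in the Wnt list, had a mean ratio of 1.02 ± 0.0610 (SD, n = 6) and was above 1 in 3 of 6 pairs.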

How the data were processed

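The authors deposited raw counts per nCounter probe (199 genes, 8 negative and 6 positive control probes), before background correction or scaling. Identifiers were named from the panel list of the study (193) or a RefSeq table of GRCh38.p14 (6). The members and gene lists were chosen with earlier results of these data known. Counts were fitted with edgeR 4.0.16 (quasi-likelihood, R 4.3.3), using panel totals as library sizes. The 136 genes whose mean count reached 20 entered, with Benjamini-Hochberg adjustment over all 136 and a threshold of 0.05. Fits of miR-25 against control held all 12 samples and the pair as a block. Both samples of a pair deviated from their group means together (r = 0.283 to 0.883), and the labels give each pair its own efficiency. Fits of 48 h against 24 h held the 6 samples of an arm. The study describes its data in general as coming from at least 3 independent experiments, but the labels do not say what separates these replicates, so p-values may measure technical spread. A gene counted as above background when its count exceeded the mean of the negative probes by more than 2 SD. Isoform ratios and relations were tested by exact permutation with python 3.11.15, numpy 2.4.6 and scipy 1.17.1, and tables and plots used pandas 2.3.3 and matplotlib 3.10.9. Alternatives were TMM scaling, 5 reference genes, the total without GAPDH, the positive probes (chosen after seeing the data, as were pair means), background subtraction, other filters, DESeq2 1.42.0, limma 3.58.1 (log2 with a pseudocount of 1), other blocks and each pair or sample left out. In simulated counts for 136 genes the fit recovered 73.3% of 1.25-fold changes at 24 h and 80% at 48 h between miR-25 and control. Between time points it recovered 13.3% and 6.67% of 1.25-fold changes in the control and miR-25 samples, and 20% and 36.7% of 1.5-fold changes. Each of these shares rests on 30 changed genes. The simulation gave all genes of a comparison the same spread, so recovery in the real data may differ. It also changed many genes at once, up to 2-fold, which eases the adjusted threshold. The real fits of miR-25 against control called 0 or 1 gene, so recovery there may be lower. The genes named are the members, CSNK1A1, CSNK1A1L, CSNK1G3 and CSNK2A1, the 3 genes most like each member (1 of them is not reported here), and up to 3 per direction with the smallest p among those called in each list. Transcript sequences outside the probe targets were not used here.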

Additional observations from a re-analysis of the deposited data

How the results depend on the processing

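The isoform results depended most on 48 h replicate 1, on the scaling and on the low counts of CSNK1G2, and no cause was tested. Between miR-25 and control the log2 fold changes of CSNK1D, CSNK1E and CSNK1G2 kept their sign in every alternative run at 24 h, at 48 h and over both times, and CSNK1G1 at 48 h ran from -0.016 (without 48 h replicate 1) to 0.18 with pairs left out. As the isoforms were chosen for this direction in the same samples, a kept sign is not independent evidence. Positive control probe scaling called 51 genes and 4 isoforms at 48 h and 32 genes and 3 isoforms over both times. The genes called were 3 in 24 h alone and, at 48 h, 0 with 5 reference genes, 3 with no filter, 0 with no replicate block and 3 in 48 h alone. With pairs left out they were 0 to 3 at 24 h and 0 to 4 over both times (3 and 4 without 48 h replicate 1), and at 48 h 0 without 24 h replicate 3 to 2 without 48 h replicate 3. The efficiency correction moved all 8 mean ratios of the isoforms by more than their SD.

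The difference between the times never passed for an isoform. It was above 0 with TMM scaling (0.012 for CSNK1D, 0.0051 for CSNK1G1, 0.0077 for CSNK1G2), the total without GAPDH (0.015, 0.0052 and 0.0082), DESeq2 (0.026, 0.032 and 0.050), limma (0.013 for CSNK1G1, 0.043 for CSNK1G2), no replicate block (0.0017 for CSNK1G2) and the positive probes (0.22, 0.19, 0.21 and 0.21 for CSNK1D, CSNK1E, CSNK1G1 and CSNK1G2). With pairs left out it ran from -0.037 to 0.034, -0.084 to 0.037, -0.078 to 0.12 and -0.13 to 0.16 in that order. TMM scaling, the total without GAPDH, no filter, DESeq2 and the positive probes each called 1 gene.

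Between 48 h and 24 h, DESeq2 called 22 genes in the control samples and 33 in the miR-25 samples, with 1 isoform there, CSNK1D, which the total without GAPDH also called. No filter gave 6 genes in the miR-25 samples. The positive probes called 26 and 50 genes and 1 isoform, CSNK1E in the miR-25 samples, as lower, with log2 differences in the same order of -0.38, -0.61, -0.53 and -0.55 in the control samples and -0.21, -0.46, -0.39 and -0.41 in the miR-25 samples. CSNK1E was -0.0025 with 5 reference genes in the miR-25 samples. The replicate block called 0 genes and 0 isoforms in each arm. The labels do not say whether equal replicate numbers at 24 h and 48 h belong together. Such samples carry different efficiencies, and their deviations correlated at -0.0958 to 0.0565. In the control samples 54 genes and 2 isoforms were called without 48 h replicate 1, 1 or 2 genes without 48 h replicate 2 or any 24 h replicate, and 0 isoforms with any other left out. In the miR-25 samples it was 62 genes and 1 isoform without 48 h replicate 1, and 0 to 2 genes and 0 isoforms otherwise. CSNK1G2 ran from -0.030 (without control 48 h replicate 3) to 0.30 in the control samples.

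No isoform ratio could pass with 3 samples against 3. CSNK1E to CSNK1G1 was -0.019 with pair means against the control samples and CSNK1E to CSNK1G2 0.0042 against the miR-25 samples. With samples left out, the log2 changes of CSNK1E to CSNK1G1, CSNK1E to CSNK1G2 and CSNK1G1 to CSNK1G2 ran from -0.22 to 0.12, -0.18 to 0.20 and -0.020 to 0.071 in the control samples and from -0.23 to 0.078, -0.15 to 0.046 and -0.072 to 0.082 in the miR-25 samples. Of the relations over pairs, r of CSNK1D against efficiency was 0.0653 with TMM scaling and 0.0160 with 5 reference genes, and against miR-25 level TMM scaling gave 0.415 for CSNK1D, 0.212 for CSNK1G1 and 0.00671 for CSNK1G2; none passed.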
